A study of Mus musculus with 12 samples.

Results

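The genes examined here encode the subunits, receptors and soluble inhibitor of the IL-12, IL-18 and IL-27 cytokines: Il12a, Il12b, Il12rb1, Il12rb2, Il18, Il18bp, Il18r1, Il18rap, Il27 and Ebi3. They were taken by symbol from the gene list of the single-cell RNA-seq files, and all 10 were present among the 26938 genes with at least 1 UMI (unique molecular identifier, 1 counted transcript copy). The rule used their names and no measured value, but earlier results of these data were known when they were chosen.

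The tissue was the MC38 tumor, a mouse colon carcinoma line grown subcutaneously in female mice of 8 to 12 weeks. The hosts were C57BL/6J (B6) and F1 crosses of C57BL/6J with 7 Collaborative Cross strains (CC001, CC002, CC007, CC036, CC075, CC079 and CC080), inbred lines that each carry a different mix of founder genomes, so every host carried at least 1 C57BL/6J genome. At a tumor size of 75-110 mm3, each mouse received a single intraperitoneal dose of 200 ug of isotype control (2A3) or anti-PD-1 antibody (aPD1, 29F.1A12), and tumors were taken 48 h later. Cells were sorted to 90% CD45+ and 10% CD45-, and 4 hashtagged tumors were pooled in each of 12 libraries. The study classed CC001, CC002 and CC075 as responder (R) and CC036, CC079 and CC080 as non-responder (NR) strains to aPD1, which gave 10 isotype and 10 aPD1 R tumors and 9 isotype and 9 aPD1 NR tumors. The other 10 tumors came from B6 (6) and CC007 (4), which were left out of the class comparisons. The labels name strain and treatment only, so a difference between classes is a difference between 3 strains and 3 strains.

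IL-12 is a heterodimer of the p35 chain (Il12a) and the p40 chain (Il12b). It is released by dendritic cells and macrophages and acts through Il12rb1 and Il12rb2 on T and NK cells, where STAT4 signaling drives interferon gamma. IL-18 is stored as a precursor that inflammasome caspase-1 cleaves, binds Il18r1 paired with Il18rap, and is captured outside the cell by the IL-18 binding protein, Il18bp. IL-27 joins the Il27 chain to Ebi3 and signals through Il27ra and Il6st, and Ebi3 can also pair with the p35 chain as IL-35, a product described in regulatory T cells. The transcripts give no account of cleavage, pairing or secretion of these proteins.

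In GRCm38, the ligand genes lie at chr3:68690644-68698547 (Il12a, + strand), chr11:44400063-44414033 (Il12b, +), chr9:50554827-50581840 (Il18, +), chr7:126589010-126594941 (Il27, -) and chr17:55952640-55957022 (Ebi3, +). The receptor genes Il18r1 (chr1:40465552-40500854, +) and Il18rap (chr1:40515362-40551705, +) are neighbors on one strand. Il12rb1 lies at chr8:70808449-70821424 (+), Il12rb2 at chr6:67291318-67376188 (-) and the inhibitor Il18bp at chr7:102014885-102018690 (-). All 10 are protein-coding. Annotated genes on the opposite strand overlap Il12rb2 (Serbp1), Il18bp (Numa1), Il27 (Apobr), Il18 (Bco2 and Tex12) and Ebi3 (Gm16712).

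Promoter sequences are shown for 3 genes with unlike patterns below: Il12b, found almost wholly in dendritic cells, Il12rb2, a T/NK receptor chain that differed between host strains, and Ebi3, which differed between responder classes in one direction in macrophages and in the other in T/NK cells. Each run is the 250 bases before the RefSeq start on GRCm38.p6, 5′ to 3′ on the strand of the gene, at chr11:44399813-44400062 (Il12b), chr6:67376189-67376438 (Il12rb2) and chr17:55952373-55952622 (Ebi3). Capitals mark a STAT-type motif.
Il12b: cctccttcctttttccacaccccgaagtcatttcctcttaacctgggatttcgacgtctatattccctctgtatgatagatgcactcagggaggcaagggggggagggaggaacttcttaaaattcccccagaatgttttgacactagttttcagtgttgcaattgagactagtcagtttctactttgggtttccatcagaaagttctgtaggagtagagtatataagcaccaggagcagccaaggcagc
Il12rb2: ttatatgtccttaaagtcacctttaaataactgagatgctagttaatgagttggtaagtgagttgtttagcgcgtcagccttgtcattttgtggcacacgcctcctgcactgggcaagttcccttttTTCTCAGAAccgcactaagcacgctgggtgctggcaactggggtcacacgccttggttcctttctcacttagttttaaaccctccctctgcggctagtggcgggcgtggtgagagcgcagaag
Ebi3: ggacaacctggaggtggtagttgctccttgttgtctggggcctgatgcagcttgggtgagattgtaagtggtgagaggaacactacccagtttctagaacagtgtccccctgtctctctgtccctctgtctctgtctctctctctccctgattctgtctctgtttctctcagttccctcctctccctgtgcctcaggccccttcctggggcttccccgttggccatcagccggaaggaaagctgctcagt
The motif searched was TTCNNNGAA, which reads the same on both strands and occurred in 7.02% of 32851 mouse promoter windows of this length. Of the 11 windows found for 8 of the genes, the Il12rb2 window and 1 Il18r1 window held it, the former starting 123 bases before the start. An interferon response motif, GAAA followed after any 2 bases by GAAA, on either strand, was in none of the 11 windows and in 2.98% of all windows. Il27 and Il12rb1 had no window in the table used. A match in this window is a description of the letters and shows no binding.

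The 93126 cells came from 48 tumors with 53 to 3082 cells and 88816 to 17713491 UMIs each, at a median of 3333.5 UMIs a cell. A UMI of Ptprc (CD45) was found in 74.4% of cells, and 10.9% of cells had a barcode that also occurred in another pool. The CC007 aPD1 tumor of pool 6 (53 cells), the CC002 isotype tumor of pool 12 (248 cells) and the B6 isotype tumor of pool 7 (345 cells) were the smallest. Isotype and aPD1 tumors never carried the same hashtag, so hashtag and treatment cannot be told apart. One CC080 isotype tumor and 1 CC080 aPD1 tumor, in different pools, carried the same animal identifier.

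Cells were grouped by the 27 cluster numbers in the files. Clusters 2, 4, 5, 9, 15, 17, 19, 21, 26 and 27 held 5 to 7 of 7 macrophage markers and were summed as macrophages (68059 cells). Clusters 1, 3, 7, 8, 10, 12, 13, 23 and 24 were summed as T/NK cells (12021 cells), of which 3 and 13 were CTL-like, 8 Treg-like and 24 NK-like. Clusters 6 (cDC1-like), 11 (migratory DC-like) and 14 (led by Cd209a, left unnamed since 5 of 7 macrophage markers were also present) were summed as dendritic cells (7817 cells). Cluster 12 also held 6 of 7 macrophage markers, and cluster 5 was led by immunoglobulin and hemoglobin genes (such as Ighg2c, Igkc and Hbb-bs), with no macrophage marker among its 10 leading genes. Without cluster 5, the same 4 genes as in the class comparison below were called in macrophages. Levels are given as counts per 1e+06 UMIs (CPM) of the cells summed. A level in all cells of a compartment or tumor cannot tell fewer cells of a type from less RNA per cell.

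Each ligand chain had its own pattern over the clusters. Il12b, the p40 chain, was found almost wholly in dendritic cells, which held 96.3% of its UMIs. Migratory DC-like cluster 11 alone held 91.3%, at 774.6 CPM, and over the 44 tumors with enough cells of it the level ran from 31.4 through a median of 768 to 1541 CPM. A UMI of Il12b was found in 32.7% of these cells (Wilson 95% interval 30.4 to 35.1%) at a median depth of 3652 UMIs, against 0.12% of macrophage cluster 2 at 3881 UMIs. Il12b reached 27.5 CPM in cDC1-like cluster 6 and 3.10 CPM in cluster 21.

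Il12a, the p35 chain, was rare, with 264 UMIs in the whole series. Its level was highest in pDC-like cluster 18, at 17.5 CPM in all and 0, 10.5 and 62.1 CPM as the lowest, median and highest of 18 tumors, but this cluster held only 10.6% of its UMIs. Unnamed cluster 20 held 37.5% at 3.65 CPM, and macrophages 45.1%. No Il12a UMI was found in cluster 11, where 3 UMIs would make 0.452 CPM. It follows that none of the 498 cells of cluster 11 with an Il12b UMI held one of Il12a, nor did any of the 1026 without. With cells taken as independent, this allows up to 0.602% of the 498 to hold one. It sets no limit on the cells that express Il12a.

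**Figure D1:**
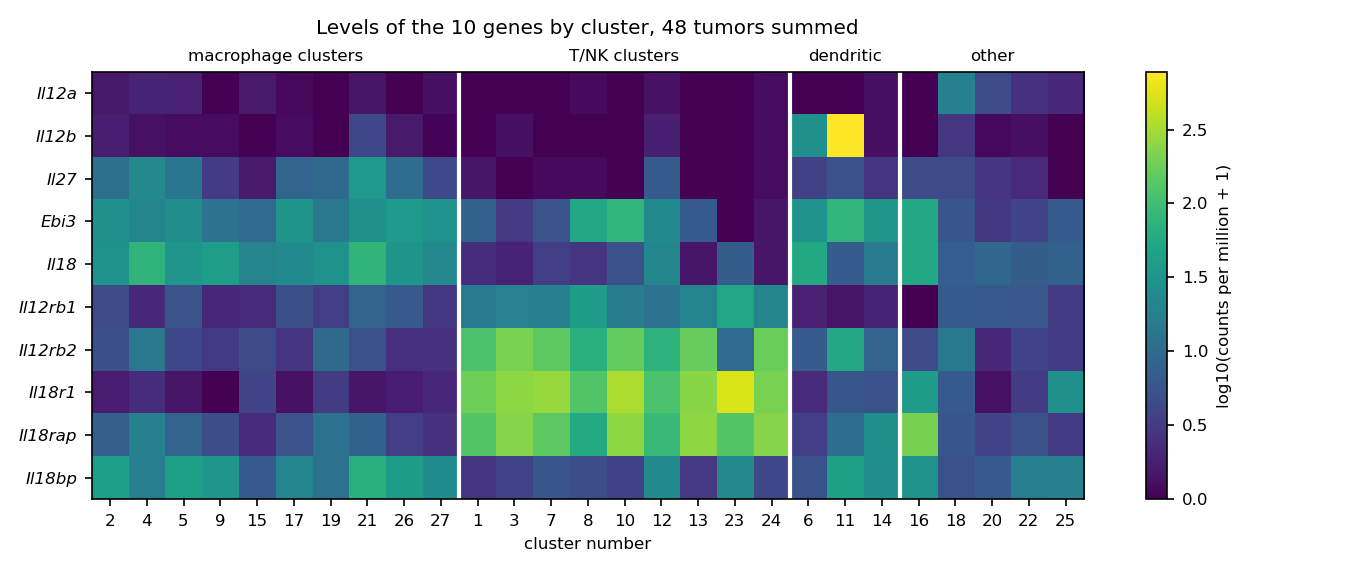
Level of each of the 10 genes (rows) in each of the 27 clusters (columns), as log10(CPM + 1) of UMI counts summed over all cells of the cluster. Il12b stands out in cluster 11, the receptor chains in the T/NK clusters, and Il18, Il18bp and Il27 in macrophage clusters led by cluster 21.

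Il18, Il18bp and Il27 were macrophage transcripts, with 87.9%, 88.3% and 95% of their UMIs in that compartment. All 3 were highest in cluster 21, a macrophage cluster led by Ifit interferon-induced genes. Il18 reached 77.2 CPM there (22.5, 76.8 and 166 CPM as the lowest, median and highest tumor) and 75.1 CPM in cluster 4, led by Ace and Adgre4. Il18 was also present in cluster 6 (55.3 CPM) and in granulocyte-like cluster 16 (53.3 CPM). Its median over tumors was highest in cluster 16 (81.7 CPM, 18 tumors). In cluster 16, 30 UMIs of a gene over all tumors make 53.3 CPM, so both values there rest on few UMIs. Il18bp reached 67.9 CPM in cluster 21, with 43.7, 42.8 and 42.3 CPM in clusters 11, 5 and 2, against 2.78 CPM in CTL-like cluster 3.

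Il27 was at 35.2 CPM in cluster 21 and 22.2 CPM in cluster 4, and was not found in cluster 3, where 3 UMIs would make 0.32 CPM. Ebi3, its partner chain, was spread more widely. Macrophages held 77.7% of Ebi3 UMIs, dendritic cells 16.1% and T/NK cells 5.32%, but the level was highest in cluster 10, T cells led by Il13 and Cd4 (80.0 CPM), and in cluster 11 (79.1 CPM). Treg-like cluster 8 had 51.8 CPM and NK-like cluster 24 had 0.490 CPM. Tumors overlapped widely in each of these clusters, from 14.4 to 152 CPM in cluster 10, from 9.11 to 331 CPM in cluster 11 and from 0 to 256 CPM in cluster 8. Of 3063 macrophages with an Il27 UMI, 14.6% also had one of Ebi3, against 10.4% of the other macrophages, but median depth was 4555 UMIs in the former and 3432 in the latter.

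The IL-18 receptor chains and Il12rb2 were T/NK transcripts, with 94.1% (Il18r1), 67.5% (Il18rap) and 73.9% (Il12rb2) of their UMIs in that compartment. Il18r1, the ligand-binding chain, was highest in cluster 23, led by Il23r, Il17a and Il1rl1 (537 CPM), followed by clusters 10 (337 CPM), 7 (276 CPM) and 3 (252 CPM). Only 4 tumors had enough cells of cluster 23, from 243 to 473 CPM, and their range overlapped that of cluster 10 (98.2 to 646 CPM). Il18rap, the accessory chain, was at 253 CPM in cluster 13, 251 CPM in cluster 10, 232 CPM in cluster 24 and 229 CPM in cluster 3, and these neighbors did not differ beyond their spread. Il18rap was also found in granulocyte-like cluster 16 (196 CPM), and macrophages held 19.5% of its UMIs.

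Il12rb2, the signaling chain of the IL-12 receptor, was at 202 CPM in CTL-like cluster 3 and 175 CPM in NK-like cluster 24, with tumor ranges of 40 to 537 and 9.76 to 773 CPM. A UMI was found in 34.7% of cluster 3 cells at 2823 UMIs a cell, against 1.71% of cluster 2 cells at 3881 UMIs. Cluster 11, the source of most Il12b, itself had 54.3 CPM of Il12rb2. Il12rb1, the chain shared with the IL-23 receptor, was low throughout, with 38.4 CPM in Treg-like cluster 8, 20.3 CPM in cluster 24 and 18.1 CPM in cluster 3. Its highest summed level, 49.6 CPM in cluster 23, rested on 16 UMIs. Macrophages, the most numerous cells, held 58.2% of Il12rb1 UMIs, at levels such as 5.54 CPM in cluster 26.

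Of 4086 T/NK cells with an Il18r1 UMI, 44.1% also had one of Il18rap, against 19.9% of the other T/NK cells (median depths 2467.5 and 1694 UMIs). Of 2774 T/NK cells with an Il12rb2 UMI, 6.09% had one of Il12rb1, against 5.16% of the others (2737 and 1733 UMIs). Both comparisons moved with depth, whose part was not tested. Over the 27 clusters, the gene whose log2(CPM + 1) followed Il18r1 most closely was Prkcq (Pearson r = 0.98). The closest was Gfi1 for Il18rap (0.92), Adora2a for Il12rb2 (0.93), Abca2 for Il12rb1 (0.89), Lrrc25 for Il18 (0.95), Ly6i for Il18bp (0.88), Mab21l3 for Il12b (0.91) and Ppm1e for Il12a (0.90). Il27 was followed by Gm46224 and Nampt (both 0.88), and Ebi3 by E230029C05Rik at 0.77, the lowest of these values. The clusters shared libraries and differed in depth, so these values describe likeness only.

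The classes were compared on UMI counts summed per tumor, in one edgeR quasi-likelihood fit over all genes with Benjamini-Hochberg adjustment, called at an adjusted p of 0.05. In macrophages, Il18bp, Il12rb1, Il27 and Ebi3 were higher in R than in NR tumors over both treatments, that is 4 of the 7 genes tested. Of all 11873 genes tested in macrophages, 6.56% were called and 4.1% were higher in R. Il18, the ligand that Il18bp captures, did not pass. The median log2 difference of the 7 was 0.35, against -0.0045 over all genes. Il12a, Il12b and Il18r1 were too low in macrophages to be tested.

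Il18bp had the largest separation. In R aPD1 tumors the macrophage level was 31.5, 65.4 and 103 CPM as the lowest, median and highest of 10 (64.3 ± 23.9, mean ± SD), and in NR aPD1 tumors 11.9, 22 and 26 CPM of 9 (20.8 ± 4.76). The aPD1 groups did not overlap, as was so in the same direction for 0.278% of genes. In isotype tumors the levels were 24, 35.1 and 84.8 CPM in R and 10.6, 18.4 and 51.4 CPM in NR, which overlapped. Over both treatments the log2 difference was 1.13 ± 0.20 (SE; adjusted p = 2.21e-04, edgeR).

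In aPD1 tumors alone, where 6.44% of genes were called and 4.35% were higher in R, the same 4 genes passed. The log2 difference of Il18bp was 1.71 ± 0.28, or 3.28-fold (adjusted p = 1.31e-04, edgeR). In isotype tumors alone, where 0.278% of genes were called, none of the 7 passed the edgeR test and none had an unadjusted p under 0.05, as 797 of all 11873 genes had. There the log2 difference of Il18bp was 0.56 ± 0.28 (adjusted p = 0.760, edgeR).

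Il18bp was higher in most macrophage clusters. In aPD1 tumors, its median was higher in R than in NR in 8 of 9 clusters, and lower in cluster 4 (15.6 against 16.8 CPM). In cluster 21 it ran from 62.4 through 105 to 174 CPM in R and from 29.8 through 56.0 to 72.7 CPM in NR. In cluster 2 the values were 32.1, 65.8 and 105 CPM in R and 11.1, 20.9 and 30.1 CPM in NR, and in cluster 26 they were 30.9, 53.6 and 125 CPM against 9.92, 20.7 and 30.8 CPM. The lowest R tumor was just above the highest NR tumor in clusters 2 and 26, and below it in cluster 21. The share of all genes with such a gap was not counted in single clusters, which come from the same tumors as the summed values. Clusters 4 and 21 together made up 9.84% of macrophages at the median in R and 13.2% in NR aPD1 tumors.

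**Figure D2:**
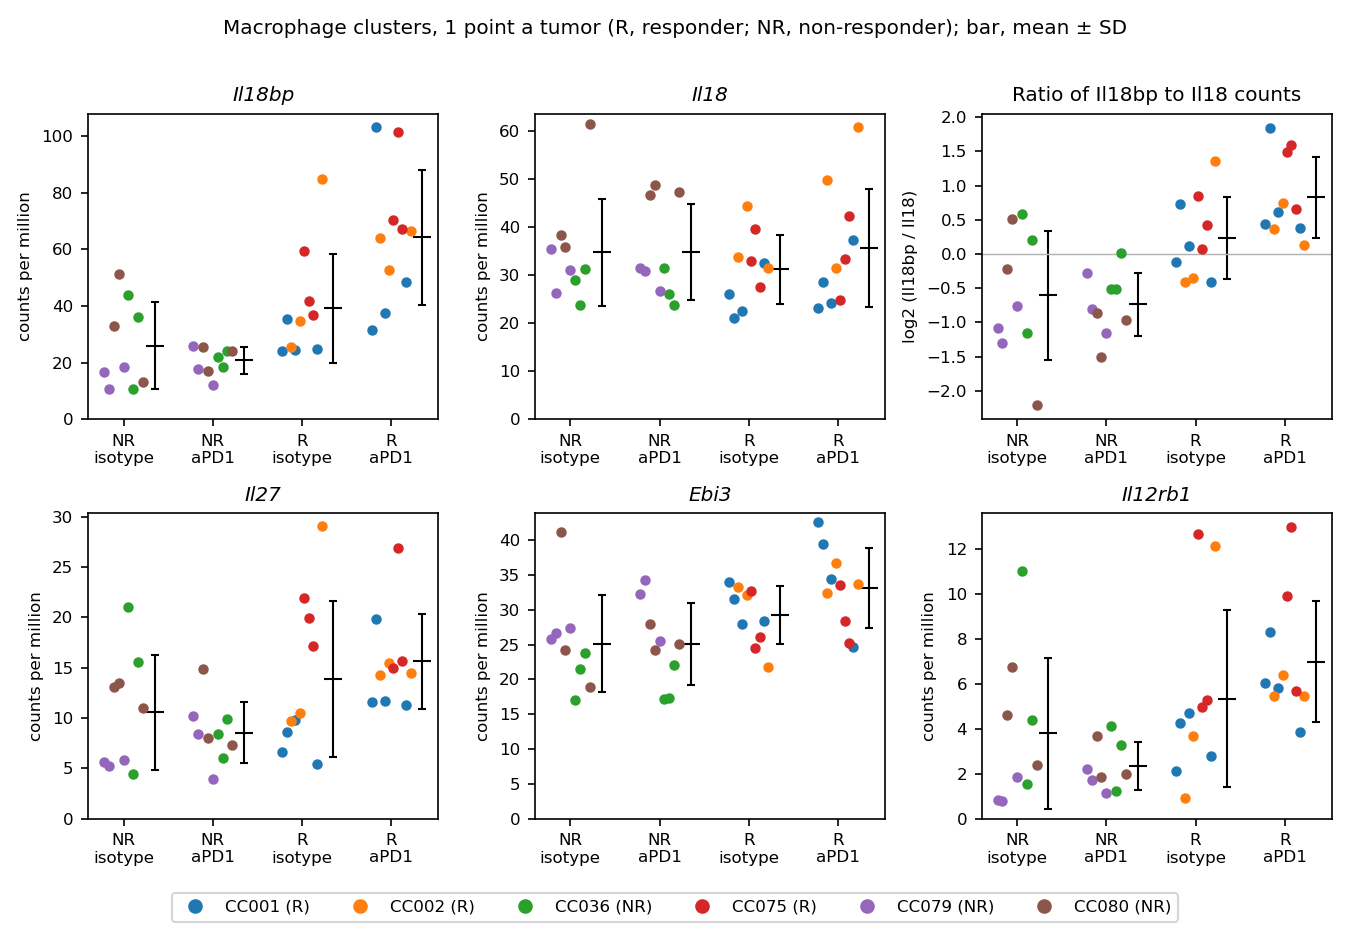
Macrophage levels (CPM) of Il18bp, Il18, Il27, Ebi3 and Il12rb1 and the log2 ratio of Il18bp to Il18 in each tumor (points, colored by strain), by class and treatment, with the mean ± SD of each group. Il18bp and the ratio of R aPD1 tumors lie above every NR aPD1 tumor, while Il18 covers much the same range in all 4 groups.

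Il18 itself had macrophage medians of 32.4 (R aPD1), 31.6 (NR aPD1), 32.1 (R isotype) and 31.4 CPM (NR isotype), and the log2 class difference was -0.02 ± 0.13 (adjusted p = 0.98, edgeR). The log2 ratio of Il18bp to Il18 within macrophages was taken with 1 UMI added to each. In aPD1 tumors it was 0.83 ± 0.60 (SD, n = 10; 0.129 to 1.85) in R and -0.73 ± 0.46 (n = 9; -1.51 to 0.00846) in NR. The difference of 1.56 had an exact two-sided permutation p of 1.08e-05, the smallest that 92378 arrangements allow (adjusted over 4 comparisons, 4.33e-05). In isotype tumors the difference was 0.83 (0.23 ± 0.60 in R, -0.60 ± 0.94 in NR; exact permutation p = 0.0324, adjusted 0.0528). Both class tests shuffled single tumors, although class belongs to strains, so their p takes tumors of the same strain as independent. No test of the ratio with strains as the unit was run. In aPD1 tumors the lowest R strain median was 0.365 (CC002) and the highest NR strain median was -0.505 (CC036). In isotype tumors the strain medians overlapped, with CC036 (NR) at 0.199 and CC002 (R) at -0.346. The aPD1 minus isotype difference was 0.60 in R strains (permutation p = 0.0396 with n of 10 and 10, adjusted 0.0528). It was -0.13 in NR strains (exact permutation p = 0.712). With R tumors paired by pool, averaging the R strains of a pool that held more than 1, it was 0.69 over 9 pools (exact permutation p = 0.00781). Leaving out 1 pool or strain kept the aPD1 class difference (1.37 to 1.76), while the isotype class difference missed an unadjusted 0.05 without pool 1, 2, 9, 11 or 12, CC001, CC075 or CC079, and the aPD1 effect in R strains without pool 1, 2, 3, 4, 5 or 10, CC001 or CC075.

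Il27, the cytokine chain specific to IL-27, was at 11.3, 14.7 and 26.9 CPM in macrophages of R aPD1 tumors and at 3.94, 8.36 and 14.9 CPM in NR aPD1 tumors, so 5 of 10 R tumors were above all NR tumors. The isotype groups overlapped more, at 5.44 to 29.1 CPM in R and 4.44 to 21 CPM in NR. Over both treatments the log2 difference was 0.66 ± 0.20 (adjusted p = 0.0366, edgeR), and 0.94 ± 0.27 in aPD1 tumors (adjusted p = 0.0302). The call over both treatments was lost without any one of pools 2, 5, 9, 10 or 11 or of strains CC002, CC075 or CC079, and the value was 0.36 without CC075. In aPD1 tumors alone it ran from 0.80 to 1.10 on leaving out 1 pool or strain, with adjusted p up to 0.116 (edgeR), and the call was lost without pool 2, 5, 9, 10 or 11, CC002, CC036, CC075, CC079 or CC080 and kept in the other 6 settings.

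Its partner Ebi3 was at 24.7, 33.7 and 42.6 CPM in R aPD1 and at 17.2, 25.1 and 34.3 CPM in NR aPD1 macrophages, a smaller and overlapping difference (log2 0.35 ± 0.09 over both treatments, adjusted p = 0.0182, edgeR). The call was lost without pool 5, pool 9, CC001, CC002 or CC036, and the value was 0.21 without CC036. In aPD1 tumors alone the log2 difference was 0.47 ± 0.13 (adjusted p = 0.0248, edgeR), from 0.30 to 0.65 on leaving out 1 pool or strain with adjusted p up to 0.150, and the call was lost without pool 4, 5, 9 or 10, CC001, CC002 or CC036.

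Il12rb1 was low in macrophages but differed by more, at 3.86, 5.93 and 13 CPM in R aPD1 and 1.14, 1.97 and 4.11 CPM in NR aPD1 tumors. Of the R tumors, 9 of 10 were above all NR tumors. Over both treatments the log2 difference was 1.12 ± 0.27 (adjusted p = 0.00811, edgeR) and in aPD1 tumors 1.64 ± 0.37 (adjusted p = 0.00611). Over both treatments the call was lost without pool 9 (0.86, adjusted p = 0.0649), CC075 (0.77, adjusted p = 0.102) or CC079 (0.76, adjusted p = 0.104), while in aPD1 tumors it was kept on leaving out any 1 pool or strain (adjusted p up to 0.0345, edgeR). Markers of T/NK cells were also present in the summed macrophages. The 9 of them together ran from 4.15 through 8.61 to 48.9 CPM in R aPD1 and from 2.69 through 4.48 to 8.16 CPM in NR aPD1 tumors, with none at 0. None of the 3 T/NK markers that could be tested passed between classes, at a median log2 difference of 0.71. In isotype tumors the 9 together had medians of 4.60 CPM in R and 5.67 CPM in NR. The part of these T/NK markers in the Il12rb1 difference was not tested. Of migratory DC markers in macrophages 1 of 4 was higher in R and none lower, and their sum ran from 3.52 through 5.32 to 26.4 CPM in R aPD1 and from 2.89 through 4.66 to 6.87 CPM in NR aPD1 tumors, with none at 0. The 1 B cell marker tested was lower in R (-4.36), with sums up to 8.41 CPM in R and 389 CPM in NR tumors. The medians of these sums were close, at 0.50 and 0.38 CPM in R and NR aPD1 and 0.91 and 0.92 CPM in R and NR isotype tumors. The part of either list in the macrophage differences was not tested.

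With counts summed to 1 profile per strain, 3 R against 3 NR strains, none of these genes was called in macrophages by edgeR. Il18bp (1.26 on the log2 scale, adjusted p = 0.334), Il12rb1 (1.21, adjusted p = 0.828) and Il27 (0.74, adjusted p = 0.879, edgeR) had an unadjusted p under 0.05. How many of all genes had one in this fit is not given here, so it does not set these genes apart. The libraries were split at the widest gap in their library numbers into a lower and a higher range, pools 1 to 6 and 7 to 12. Each range holds a smaller gap, and what the numbers stand for is not given. The classed strains were not the same in both. CC079 was in pools 1, 2 and 5 alone, CC036 in pools 8, 9 and 10 and CC075 in pools 9, 10 and 11. The ranges therefore compare different strains and do not repeat one class contrast. In pools 1 to 5 alone the Il18bp difference was 0.91 (adjusted p = 0.0782) and in pools 8 to 12 alone 1.34 (adjusted p = 0.00869), and in aPD1 tumors it passed in both (1.62, adjusted p = 0.0359, and 1.75, adjusted p = 0.0311, edgeR). Il12rb1 (0.96 and 1.20), Il27 (0.42 and 0.83) and Ebi3 (0.27 and 0.51) were above 0 in both, and of these Ebi3 in pools 8 to 12 passed (adjusted p = 0.0175, edgeR).

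**Figure D3:**
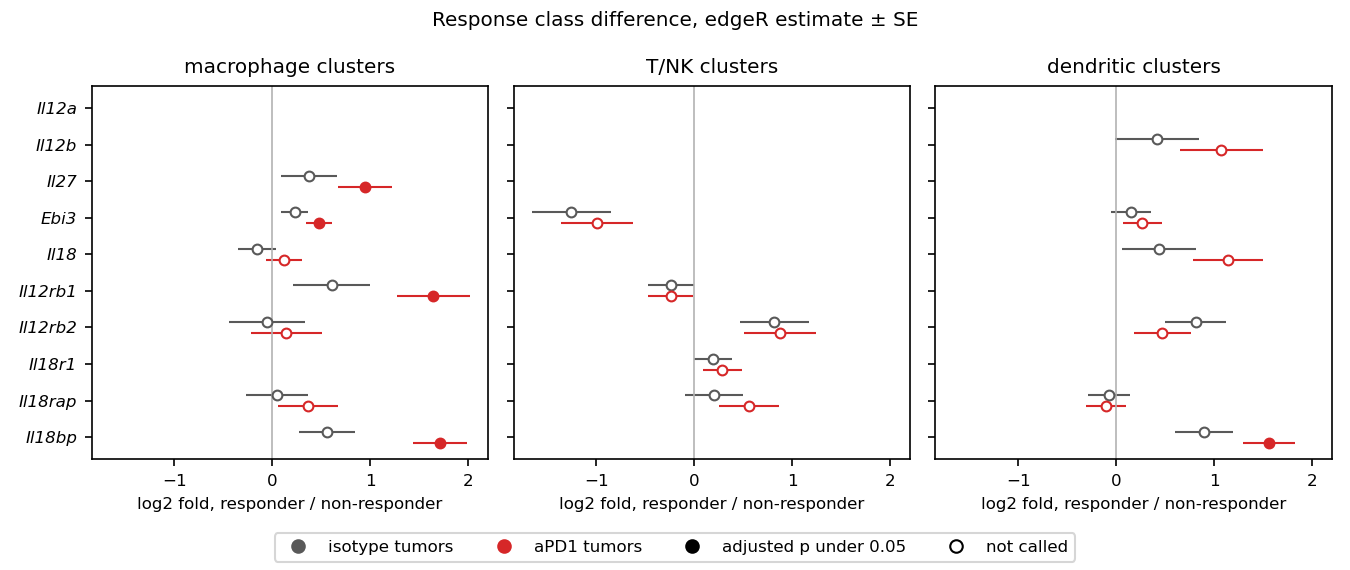
Log2 fold of R over NR strains (x axis, edgeR estimate, bars ± SE) for each gene tested in macrophages, T/NK cells and dendritic cells, in isotype tumors (grey) and aPD1 tumors (red), filled where the adjusted p was under 0.05. Only aPD1 points are filled, Il18bp, Il12rb1, Il27 and Ebi3 in macrophages and Il18bp in dendritic cells, and Ebi3 lies left of 0 in T/NK cells under both treatments.

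In dendritic cells Il18bp was again higher in R. It was the 1 gene of the 6 tested that passed, where 1.37% of all genes did and 0.704% were higher in R. In aPD1 tumors Il18bp was at 26.5, 41.3 and 63.2 CPM in R and 7.22, 10.7 and 30.9 CPM in NR dendritic cells, with 9 of 10 R tumors above all NR tumors. In isotype tumors the ranges were 15.4 to 46.0 CPM in R and 5.87 to 32.3 CPM in NR. The log2 difference over both treatments was 1.23 ± 0.20 (adjusted p = 1.04e-04, edgeR), and 1.55 ± 0.26 in aPD1 tumors alone (adjusted p = 5.05e-04), where 0.457% of genes passed and 0.27% were higher in R.

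The median of Il18bp was higher in R in each of the 3 dendritic clusters under both treatments. Summed macrophage markers in dendritic cells ran from 1079 through 1769 to 3420 CPM in R aPD1 and from 1292 through 2052 to 3847 CPM in NR aPD1 tumors. In isotype tumors they ran from 570 through 1415 to 6926 CPM in R and from 1576 through 2070 to 3096 CPM in NR, none of the 7 passed between classes, and their part was not tested. With strains as replicates the difference was 1.38 (adjusted p = 0.0537, edgeR), and it was 1.33 in pools 1 to 5 (adjusted p = 0.0131) and 1.08 in pools 8 to 12 (adjusted p = 0.108).

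Il12b in dendritic cells was at 32.1, 197 and 314 CPM in R aPD1 and 4.97, 64.4 and 249 CPM in NR aPD1 tumors, and at 9.19, 88.6 and 256 CPM against 28.9, 86.1 and 219 CPM in isotype tumors. The groups overlapped and the difference of 0.74 ± 0.30 did not pass (adjusted p = 0.274, edgeR). Il12b was called only when CC080 was left out (1.24, adjusted p = 0.0446). Within cluster 11 the medians were 852 and 563 CPM in R and NR aPD1 tumors and 865 and 779 CPM in isotype tumors (log2 0.41, adjusted p = 0.663, edgeR). Only 7 R isotype tumors had enough cells of it. Cluster 11 made up 14.2 to 40.4% of dendritic cells in R aPD1 and 12.2 to 27.9% in NR aPD1 tumors, whose part in the Il12b values was not tested.

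Il18 in dendritic cells had medians of 27.1 (R aPD1), 13.6 (NR aPD1), 18.8 (R isotype) and 18.7 CPM (NR isotype), with a difference of 0.79 ± 0.26 that did not pass (adjusted p = 0.127, edgeR). It was 0.12 without CC002 and passed without CC001 or without CC080 (adjusted p = 0.00761, edgeR). Il12rb2 in dendritic cells differed by 0.64 ± 0.21 (adjusted p = 0.130, edgeR) and passed without CC001 or with the pool as a block (0.78, adjusted p = 0.0368). Ebi3 (0.21) and Il18rap (-0.09) were close to 0.

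**Figure D4:**
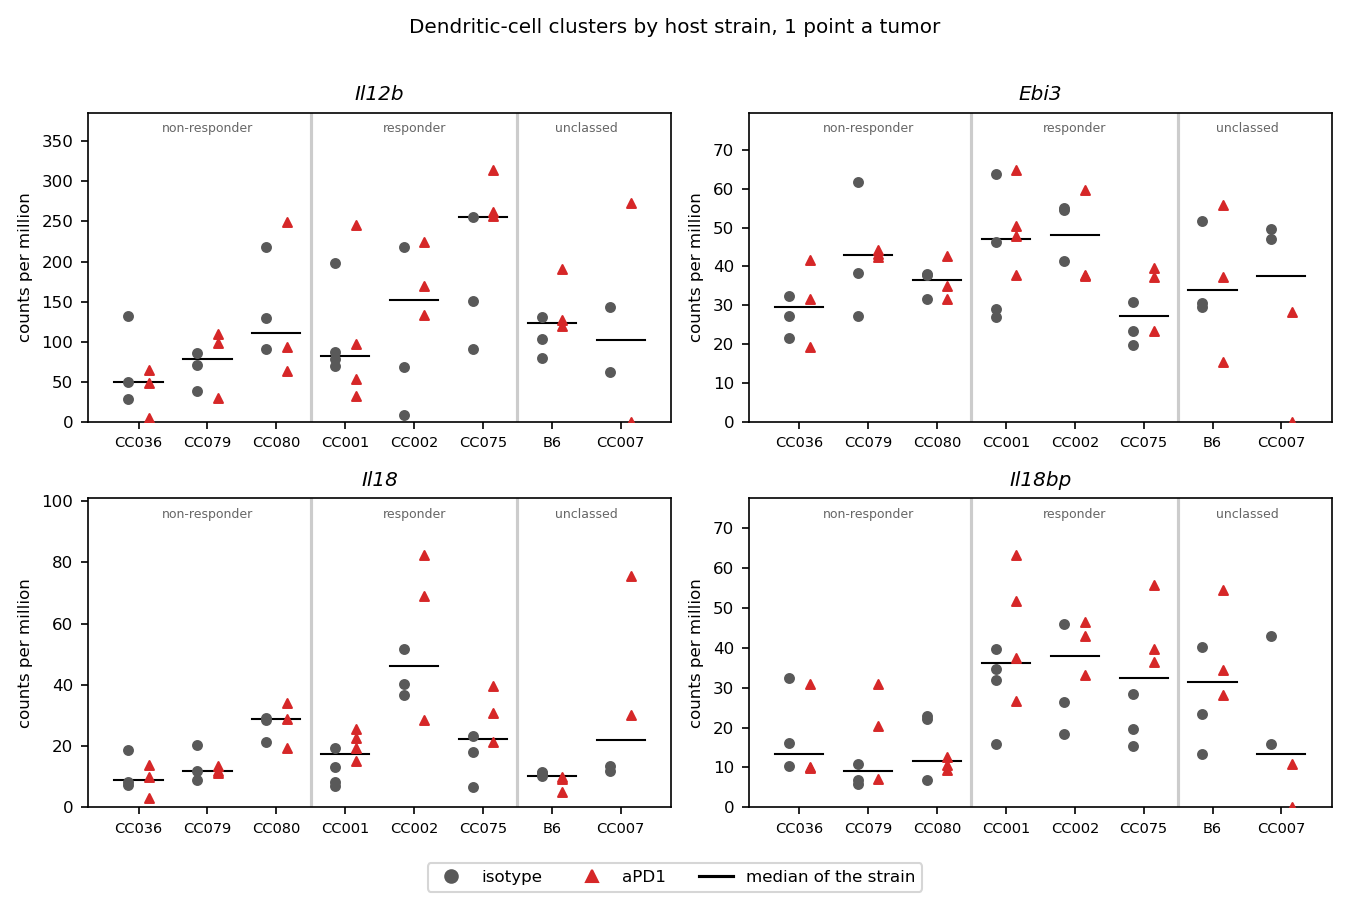
Levels of Il12b, Ebi3, Il18 and Il18bp in dendritic cells (CPM) of each isotype (circles) and aPD1 (triangles) tumor by host strain, with the strain's median as a line. The highest median of Il18 is in CC002 and that of Il12b in CC075, and the 3 R strains have higher Il18bp medians than the 3 NR strains.

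In T/NK cells, the gene that passed between classes was Ebi3, and it was lower in R. It was the 1 gene called of 5 tested, with 2.23% of all genes called and 1.3% lower in R. Ebi3 was at 7.37, 15.6 and 25.9 CPM in R aPD1 and 11.7, 35.5 and 136 CPM in NR aPD1 T/NK cells, and at 2.61, 12.5 and 17.4 CPM against 7.15, 24.8 and 89.7 CPM in isotype tumors. In each treatment, 6 of 9 NR tumors were above every R tumor. The log2 difference was -1.12 ± 0.28 (adjusted p = 0.0166, edgeR).

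In pools 1 to 5 alone the Ebi3 difference was -1.43 (adjusted p = 0.00419, edgeR), and in pools 8 to 12 alone Ebi3 was too low to be tested. Without CC079 the difference was -0.56 (adjusted p = 0.228), and the call was also lost without pool 2, 5 or 12, CC002 or CC075. By strain, Ebi3 in T/NK cells was 34.2, 54.2 and 136 CPM in CC079 and 7.15, 25.2 and 35.5 CPM in CC080, and the medians of the other strains lay between 9.53 and 16.3 CPM. Treg-like cells, among the T/NK clusters with most Ebi3, made up 11.1, 33.6 and 60.8% of T/NK cells in NR aPD1 and 2.44, 17.7 and 35% in R aPD1 tumors. In isotype tumors they made up 8.40, 15.2 and 54.7% in NR and 2.22, 14.6 and 28.6% in R. By strain their share was 28.3, 49.9 and 60.8% in CC079 and 11.1, 27.2 and 47.2% in CC080, with medians of 7.74 to 21.1% in the other strains. The part of this share in the Ebi3 values was not tested. Within Treg-like cluster 8 alone, Ebi3 was at 12.6, 48.7 and 68.7 CPM in R aPD1 and 27.9, 74.4 and 256 CPM in NR aPD1 tumors, and the log2 difference was -0.67 (adjusted p = 0.421, edgeR). Enough of these cells were found in 8 R isotype and 9 R aPD1 tumors, and in 9 NR tumors of each treatment. Summed macrophage markers in T/NK cells ran from 172 through 518 to 1437 CPM in R aPD1 and from 279 through 1095 to 3714 CPM in NR aPD1 tumors. In isotype tumors their medians were 449 CPM in R and 469 CPM in NR, and their part was not tested.

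Il12rb2 was higher in R T/NK cells without passing the main test. It was at 75, 128 and 337 CPM in R aPD1 and 12.4, 80 and 174 CPM in NR aPD1 tumors, and at 63.8, 120 and 398 CPM against 41.4, 92.2 and 182 CPM in isotype tumors. The groups overlapped, and the log2 difference was 0.85 ± 0.25 (adjusted p = 0.0663, edgeR). It passed with DESeq2 (0.89, adjusted p = 0.0271) and with the pool as a block (0.93, adjusted p = 0.00461), and without pool 8, CC001 or CC036, and it was 0.41 without CC075 (adjusted p = 0.362). CTL-like cells, with the highest Il12rb2 level in cluster 3, were 19.8, 33.7 and 53.0% of T/NK cells in R aPD1 and 4.12, 11.4 and 19.6% in NR aPD1 tumors. Within CTL-like clusters alone the difference was 0.85 (adjusted p = 0.185, edgeR). That fit held 10 R tumors of each treatment but 8 NR isotype and 6 NR aPD1 tumors, as the other NR tumors had too few of these cells.

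The IL-18 receptor chains overlapped between classes in T/NK cells. Il18r1 had medians of 218 and 167 CPM in R and NR aPD1 tumors and differed by 0.24 over both treatments (adjusted p = 0.441, edgeR), or 0.39 with the pool as a block (adjusted p = 0.0128). Il18rap had medians of 162 and 91.7 CPM and differed by 0.38 (adjusted p = 0.423), and Il12rb1 had medians of 21.4 and 27.3 CPM and differed by -0.24 (adjusted p = 0.541). Without CC036, an NR strain with high levels of both, Il18r1 (0.58, adjusted p = 0.00459) and Il18rap (0.94, adjusted p = 0.00548, edgeR) passed.

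**Figure D5:**
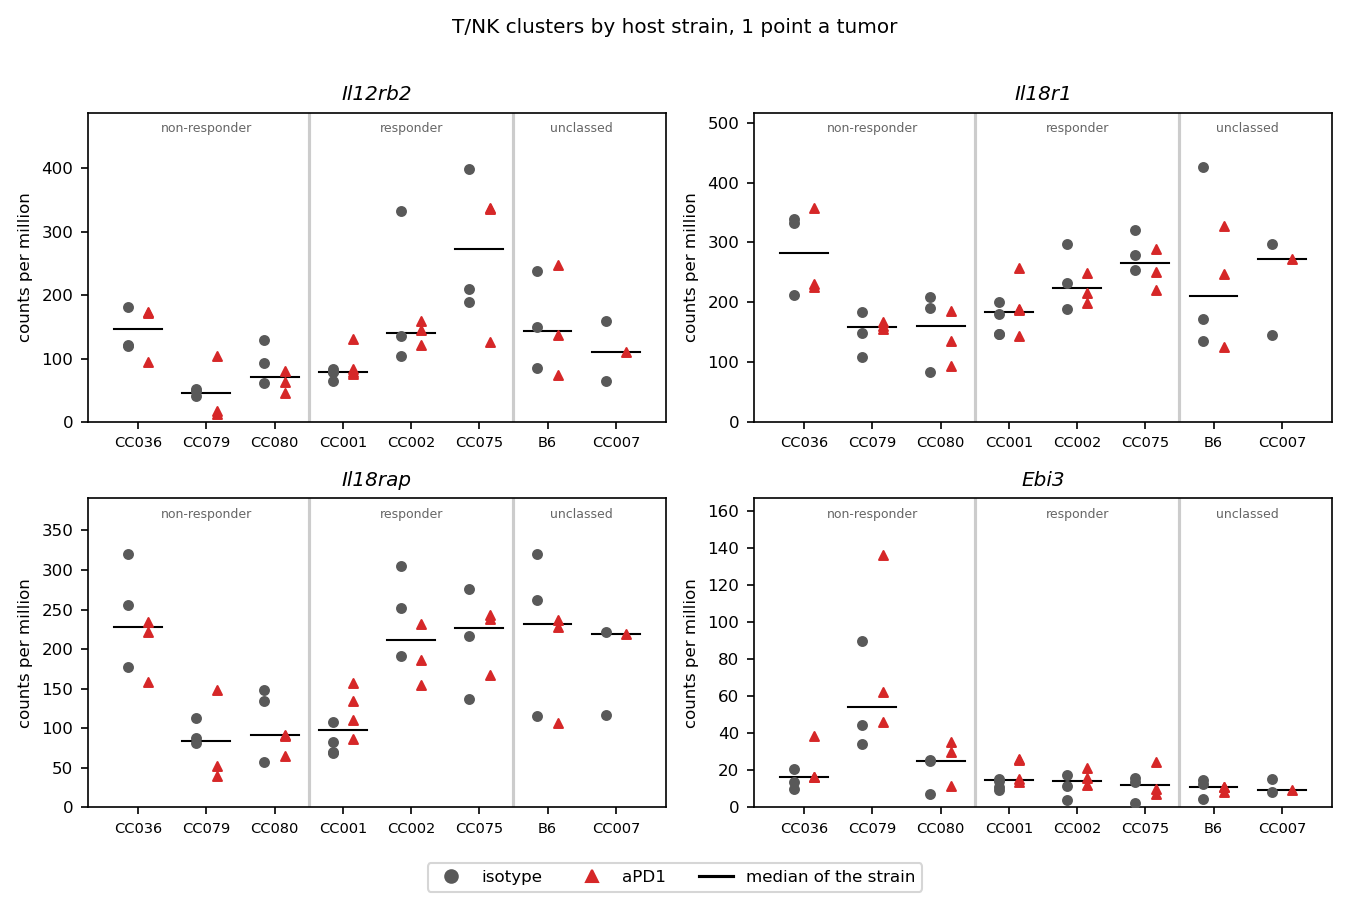
Levels of Il12rb2, Il18r1, Il18rap and Ebi3 in T/NK cells (CPM) of each isotype (circles) and aPD1 (triangles) tumor by host strain, with the strain's median as a line. Il12rb2 has its highest median in CC075 and its lowest in CC079, while Ebi3 has its highest median in CC079.

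In whole tumors, 3 of the 10 genes were higher in R strains, where 3.2% of 13503 genes were called and 1.96% were higher in R. They were Il18bp (1.13 ± 0.18, adjusted p = 1.11e-04), Il12rb1 (0.81 ± 0.22, adjusted p = 0.0297) and Il27 (0.67 ± 0.19, adjusted p = 0.0494, edgeR). Leaving out 1 pool or strain gave 0.97 to 1.28 for Il18bp, with the call kept. It gave 0.55 to 1.03 for Il12rb1, lost without pools 1, 2, 5, 9, 10 or 11, CC075 or CC079, and 0.34 to 0.91 for Il27, lost in most of these settings. The estimate was above 0 for all 10, with a median of 0.63 against -0.0034 over all genes. In isotype tumors alone it was above 0 for 5 of the 10 (median 0.047), and in aPD1 tumors for all 10 (median 1.06). T/NK cells made up 6.57, 13.4 and 35.6% of cells in R aPD1 and 1.72, 5.49 and 11.7% in NR aPD1 tumors. In isotype tumors they made up 4.58, 11.8 and 36.3% in R and 6.09, 7.39 and 45.7% in NR. Il18r1, a T/NK transcript, had whole-tumor medians of 21.9 and 8.95 CPM in R and NR aPD1 tumors against 218 and 167 CPM within T/NK cells.

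In isotype tumors alone, none of the 10 genes was called by edgeR outside macrophages either, where 0.429% of genes passed in T/NK cells, 0.235% in dendritic cells and 0.222% in whole tumors. At an unadjusted p under 0.05 there were 2, 2 and 1 of them, against 608 of all 7219, 502 of all 8525 and 791 of all 13503 genes. In aPD1 tumors alone, whole tumors had 2 called, both higher in R (2.34% of genes called, 1.64% higher in R), Il18bp (1.58, adjusted p = 2.13e-04) and Il12rb1 (1.28, adjusted p = 0.0173, edgeR). The latter call was lost without pool 2, 5 or 11, CC075 or CC079 (adjusted p up to 0.121), which left 1. T/NK cells had none by edgeR (0.346% of genes) and 2 at an unadjusted p under 0.05 (724 of all 7219 genes), Il12rb2 (0.87, adjusted p = 0.359) and Ebi3 (-0.99, adjusted p = 0.275).

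The aPD1 effect within each class was tested in the same fit. In R strains, none of the 10 genes was called in any compartment, nor was any other gene (0% of genes in each), and DESeq2 called none of the 10. In macrophages of R strains 1 of them, Il18bp, had an unadjusted p under 0.05 (821 of all 11873 genes), with a log2 difference of 0.88 ± 0.27 (adjusted p = 0.586, edgeR). Il18bp was likewise the 1 gene of the 10 under 0.05 in dendritic cells (0.77 ± 0.26, adjusted p = 0.875; 405 of all 8525 genes) and in whole tumors (0.84; 590 of all 13503 genes), and in T/NK cells there was none (215 of all 7219 genes).

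In NR strains, none of the 10 was called either by edgeR or by DESeq2, where 0% of genes were called in macrophages, dendritic cells and whole tumors and 0.0139% in T/NK cells. The macrophage estimate of Il18bp there was -0.27 ± 0.29. In whole NR tumors Il18r1 (-1.72 ± 0.60) and Il18rap (-1.21 ± 0.52) had unadjusted p under 0.05, as 512 of all 13503 genes had. In macrophages, T/NK cells and dendritic cells none of the 10 did, against 91, 265 and 93 of all genes tested there.

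The difference between these effects, the interaction of class and treatment, was called for no gene in any compartment by edgeR (0%) and for none of the 10 by DESeq2. The macrophage interaction of Il18bp was 1.15 ± 0.39 (adjusted p = 0.868). It was the 1 gene of the 10 with an unadjusted p under 0.05 in macrophages, where 680 of all 11873 genes had one. In T/NK and dendritic cells none of the 10 did (246 of all 7219 and 229 of all 8525 genes). In whole tumors 3 had one, against 897 of all 13503 genes, Il18bp (0.91, adjusted p = 0.705), Il12rb1 (0.93, adjusted p = 0.748) and Il18r1 (2.12, adjusted p = 0.705). Passing in aPD1 and not in isotype tumors therefore does not show that the class difference depends on treatment.

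Most of these genes differed among the 8 host strains over both treatments, as did a large share of all genes. In macrophages 7 of 9 tested passed the edgeR F test, where 51.7% of genes did, and 5 did with the pool as a block (Il18, Il18bp, Il27, Ebi3 and Il12rb1). Shares of all genes in these strain comparisons are from the fit without the block. With the block fewer of all genes passed in every compartment, with counts given below under the dependence on processing. Il18bp medians were 33.4, 58.5 and 63.3 CPM in CC001, CC002 and CC075 and 23, 17.2 and 24.9 CPM in CC036, CC079 and CC080. B6 (21.6, 50.6 and 73.3 CPM) and CC007 (20.5, 39 and 64.5 CPM), in neither class, were above the 3 NR strains at the median. Il18 had another order, highest in CC080 (35.9, 47.1 and 61.6 CPM) and CC007 (32.3, 43.9 and 85.9 CPM), an NR and an unclassed strain, and lowest in CC001 (21.2, 25.2 and 37.3 CPM).

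Il27 and Il12rb1 in macrophages shared their extremes. Il27 was at 15, 18.5 and 26.9 CPM in CC075 and 3.94, 5.72 and 10.2 CPM in CC079, and Il12rb1 at 4.94, 7.77 and 13 CPM in CC075 and 0.781, 1.42 and 2.18 CPM in CC079. These strains were picked as the extremes of the 8 medians. Ebi3 ran from a median of 19.4 CPM in CC036 to 32.9 CPM in CC002.

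In T/NK cells 4 of 5 passed for strain, where 25.3% of genes did, and the same 4 passed with the pool as a block. Il12rb2 was at 125, 273 and 398 CPM in CC075 and 12.4, 45.1 and 103 CPM in CC079 (adjusted p = 1.19e-06 over all strains, edgeR). CTL-like cells made up 43.9, 6.61, 18.1 and 39.6% of T/NK cells at the median in CC075, CC079, CC036 and CC001, and their part was not tested. The classes were not uniform in Il12rb2, since CC036 (94.5, 146 and 182 CPM, NR) was above CC001 (63.8, 78.7 and 132 CPM, R) at the median. Il18rap was likewise high in CC036 (158, 228 and 320 CPM) and B6 (106, 232 and 321 CPM) and low in CC079 (40.2, 84.5 and 149 CPM), CC080 (57.4, 91.1 and 148 CPM) and CC001 (68.5, 97.6 and 157 CPM), with an adjusted p of 5.84e-06 in edgeR. Il18r1 was at 212, 282 and 357 CPM in CC036 and 108, 158 and 184 CPM in CC079, the highest and lowest medians (adjusted p = 0.00490 over all strains, edgeR), and the call was lost with the range of library numbers as a term.

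In dendritic cells 4 of 6 passed for strain, where 17.4% of genes did, and 3 did with the pool as a block (Il12b, Il18 and Il18bp), Il12rb2 being lost (adjusted p = 0.0107 to 0.104, edgeR). Il18 had the smallest adjusted p of the 10 genes in any compartment in the main fit (5.23e-10, edgeR), at 28.5, 46.1 and 82.5 CPM in CC002, 2.98, 9.08 and 18.7 CPM in CC036 and 5.18, 10.1 and 11.5 CPM in B6. With the pool as a block its adjusted p was 3.54e-04, and Ebi3 in T/NK cells had the smallest (1.35e-06, edgeR). In cDC1-like cluster 6 alone Il18 was at 66.4, 155 and 227 CPM in CC002, 4.52, 16.6 and 41.5 CPM in CC036 and 6.26, 14.3 and 30.2 CPM in B6. Il12b was at 90.5, 256 and 314 CPM in CC075 and 4.97, 49.3 and 132 CPM in CC036 (adjusted p = 0.0283 over all strains, edgeR), a call lost with DESeq2 or without pool 1, 8, 10 or 11.

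Within cluster 11, the highest Il12b median among these strains was in CC002 (437, 1321 and 1541 CPM), and that of CC036 was 373 CPM (31.4 to 1190). In whole tumors 8 of 10 passed for strain, where 45.6% of genes did, and 5 with the pool as a block.

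Of 33 other genes of the pathways (further receptor chains, inflammasome parts, transcription factors and kinases), 32 were in the files. Between classes over both treatments, 2 of 24 tested in macrophages were higher in R, where 4.1% of all genes were, Irf8, a transcription factor of monocytes and dendritic cells (0.33, adjusted p = 0.00427), and Nlrc4, an inflammasome sensor (0.56, adjusted p = 2.10e-04, edgeR). In T/NK cells 0 of 26 and in dendritic cells 0 of 25 were called by edgeR, where 2.23% and 1.37% of all genes were. At an unadjusted p under 0.05 there were 4 of them in T/NK cells, against 1048 of all 7219 genes. In dendritic cells there were 9, against 1036 of all 8525 genes. In macrophages of isotype tumors 0 of the 24 were called by edgeR, where 0.278% of all genes were. Of the 24, 1 had an unadjusted p under 0.05 there, against 797 of all 11873 genes. The interaction of class and treatment was called for none of the 24. Alternative settings are not given for the pathway genes. In macrophages of aPD1 tumors, where 4.35% of all genes were higher in R, those higher included Cd40, a co-stimulatory receptor of antigen-presenting cells (0.87, adjusted p = 0.0295), Batf3 (0.89, adjusted p = 0.0257), Gsdmd, the pore former through which mature IL-18 leaves the cell (0.36, adjusted p = 0.0269), Irf8 (0.49, adjusted p = 0.00428) and Nlrc4 (0.73, adjusted p = 7.74e-04, edgeR). Ifng, the product of IL-12 and IL-18 signaling, had 52.3% of its UMIs in CTL-like cluster 13 (6314 CPM). Il27ra, the IL-27 receptor, was at 80.7 CPM in cluster 23, from 26 UMIs, and at 71.8 CPM in Treg-like cluster 8.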

How the data were processed

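The deposited files hold raw UMI counts per gene and cell, with pool, hashtag, strain, treatment and cluster for each cell. The authors aligned 10x 5′ single-cell libraries to GRCm38 with Cell Ranger, assigned cells to tumors by hashtag, and filtered and clustered cells with Seurat 5.0.1 (versions and build from the submitters' processing notes where given). No doublet caller was run here, and the authors' treatment of doublets is not given in the sources used here. Whether the counting used strand for genes that overlap on opposite strands is not given in the sources used here.

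Counts were summed per tumor (pool, strain and treatment) over all cells, macrophages, T/NK cells and dendritic cells, leaving out sums of under 10 cells. The edgeR 4.0.16 quasi-likelihood F test (TMM scaling, filterByExpr) was fitted to 4 groups, class by treatment, over 38 tumors, or to 8 strains over 48 tumors, with Benjamini-Hochberg adjustment over all genes tested. DESeq2 1.42.0 in R 4.3.3, no filter on low counts, the pool as a block, pools 1 to 5 or 8 to 12 alone, single cell types, and leaving out each pool or strain were alternatives. Counts per strain, macrophages without cluster 5, T/NK cells without cluster 12, and Treg-like cluster 8 or cDC1-like cluster 6 alone were alternatives chosen after the data were seen. CPM are per 1e+06 UMIs of the cells summed, and undetected levels are given against a floor of 3 UMIs. Intervals and floors cover counting error only. The smallest sums of a classed tumor held 125 macrophages, 29 T/NK cells and 24 dendritic cells, which limits the precision of low genes there. The log2 ratio of Il18bp to Il18 was compared by permutation of tumors, exactly or with 100000 resamples, two-sided. The fits were tested on simulated data first. Those simulated counts held no pool or strain effect, so the check cannot tell how such effects bear on the class tests.

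Tumors of one pool share a library by the labels. The deviations of same-pool tumors from their group means correlated at a median r of 0.38 in macrophages (44 of 53 pairs over 0.1), against -0.063 for different pools. Markers were counted as present in a cluster at 100 CPM or more. Positions are from a GENCODE vM21 annotation of GRCm38 and promoter sequences from RefSeq. The genes, the lists of markers and of 33 pathway genes, and the tests were chosen with earlier results of these data known. All 10 genes are named, as are the pathway genes called between classes except for a result that is not reported here; those called among strains are given as counts, and similar genes were ranked over clusters of at least 100000 UMIs among genes of at least 20 CPM in some cluster.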

Additional observations from a re-analysis of the deposited data

Results flagged for a closer look

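Each gene was examined in 1 compartment chosen for its signal or role (Il12a, Il12b and Ebi3 in dendritic cells, Il18, Il18bp and Il27 in macrophages, the receptor chains in T/NK cells), which gave 40 groups of 9 or 10 tumors. For Il12a, Ebi3 and Il12rb1 this compartment did not hold most of the UMIs. The highest and lowest tumor of each group was tested on the log2(CPM + 1) scale for a gap to the rest by Dixon's criterion. Chance meets it in about 1 in 20 groups, a rate that does not hold where most values are 0. It was met 6 times. In dendritic cells, the CC002 isotype tumor of pool 12, the smallest classed tumor, had the lowest Il12b of the R isotype tumors at 9.19 CPM, from 1 UMI, with the next at 68.5 CPM. The CC036 aPD1 tumor of pool 9 had the lowest dendritic cell Ebi3 of its group at 19.4 CPM, with the next at 31.5 CPM. Il12a in dendritic cells was found in 1 tumor each of the NR isotype group (CC079 of pool 5, 1.24 CPM from 2 UMIs) and the R aPD1 group (CC001 of pool 12, 0.604 CPM from 1 UMI), and was at 0 in the others. With the rest at 0, any single UMI meets the criterion, so these cases show sparse counts only. The CC080 isotype tumor of pool 11 had the highest macrophage Il18 of the NR isotype tumors at 61.6 CPM, with the next at 38.4 CPM. The CC075 isotype tumor of pool 10 had the lowest T/NK Il12rb1 of its group at 4.52 CPM, from 1 UMI, with the next at 12.1 CPM. No interaction of class and treatment was called for these genes by edgeR, so no difference between the classes in the aPD1 effect is listed.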

How the results depend on the processing

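For the counts of called genes among the 10, the ratio and the highest cluster, 204 alternative values kept the result, 23 moved, 6 were weaker and 1 reversed, besides leaving out 1 pool or strain. A count was taken as kept if it changed by up to 1.5-fold, whichever genes were called, or if it was 0 and stayed 0. The strain calls in dendritic cells with the block were thus taken as kept although Il12rb2 was lost. Between classes in T/NK cells, 1 of the genes was called, against 2 with DESeq2, 2 without the low-count filter, 3 with the pool as a block, 2 with the range of library numbers as a term, and 0 in pools 8 to 12, CTL-like or Treg-like cells alone or strain sums (0 to 4 leaving out 1 pool or strain). In dendritic cells 1 was called, against 2 with the block and 0 in pools 8 to 12, cDC1-like cells alone or strain sums (1 to 3 leaving 1 out). In macrophages 4 were called, against 0 in pools 1 to 5, 2 in pools 8 to 12 and 0 in strain sums (1 to 4 leaving 1 out, 1 without pool 9, 2 without pool 5, CC002, CC075 or CC079, and 3 without pool 2, 10 or 11, CC001 or CC036). In whole tumors 3 were called, against 0, 1 and 0 (1 to 4 leaving 1 out). For strain, whole tumors had 8, against 5 with the block (7 to 9 leaving 1 out), and dendritic cells 4 (2 to 6, with 2 without pool 8). The log2 Il18bp to Il18 ratio between aPD1 and isotype tumors reversed in NR strains in pools 8 to 12 (0.15, exact permutation p = 0.857), and ran from -0.34 to 0.10 leaving 1 out. In R strains it was 0.39 in pools 8 to 12 (permutation p = 0.365) and 0.62 in clusters 2, 5 and 26 (permutation p = 0.0514), and 0.50 to 0.80 leaving 1 out. Between classes in isotype tumors it was 0.56 in pools 1 to 5 (exact permutation p = 0.167), 1.11 in pools 8 to 12 (exact permutation p = 0.151), 0.70 in tumors of at least 500 cells (exact permutation p = 0.0614), 0.92 with the block (permutation p = 0.0859), and 0.61 to 1.07 leaving 1 out, and in aPD1 tumors it was 1.37 to 1.76. By the median over tumors the highest cluster was 8 for Il12rb1, 24 for Il12rb2, 16 for Il18 and 10 for Il18rap. Over all genes, class calls moved from 161 in T/NK cells to 278 (no filter), 301 (block), 296 (library range), 42 (pools 8 to 12), 28 (CTL-like), 5 (Treg-like) and 3 (strain sums); from 117 in dendritic cells to 199 (no filter), 305 (block), 51 and 31 (pools 1 to 5 and 8 to 12), 12 and 25 (clusters 11 and 6) and 1 (strain sums); from 779 in macrophages to 331, 332 and 3; and from 432 in whole tumors to 148, 153 and 2. Strain calls moved from 6544 to 1082 (block) and 2528 (library range) in whole tumors, 6464 to 1623 and 3677 in macrophages, 2138 to 620 and 798 in T/NK cells, and 1639 to 418 and 840, or 2664 without the filter, in dendritic cells. The strain fits with and without the block tested 14364 genes in whole tumors, 12510 in macrophages, 8458 in T/NK cells and 9413 in dendritic cells. The causes were not tested. Depth limits Il12a and Il12rb1, which rest on few UMIs per tumor.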

Other observations

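Other genes of these pathways had their own highest clusters. Il23r, the partner chain of Il12rb1 in the IL-23 receptor, was at 285 CPM in cluster 23. Stat4, the factor that IL-12 activates, was at 721 CPM in cluster 11, the cluster that held most Il12b, and Tbx21, a regulator of type 1 lymphocytes, was at 175 CPM in NK-like cluster 24. Il6st, the signaling chain of the IL-27 receptor, was at 221 CPM in fibroblast-like cluster 22. Il23a, which pairs with the Il12b product as IL-23, was at 53.3 CPM in granulocyte-like cluster 16, from 30 UMIs. Among the 8 host strains, 21 of 27 pathway genes tested in macrophages, 14 of 28 in T/NK cells and 13 of 25 in dendritic cells passed the edgeR test, where 51.7%, 25.3% and 17.4% of all genes did.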
